A study of Mus musculus with 47 samples.

Results

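Zfp genes encode zinc finger proteins, and 209 of the 366 genes of the hippocampal count table named Zfp followed by digits were expressed well enough to be described here. The table held 35486 genes. The 209 were selected on the measured level: a mean over all 47 libraries of at least 10 CPM (counts of a gene per 1000000 counts of its library). Their levels are therefore given as a description. The genes just inside this limit were Zfp850 (10.1 CPM) and Zfp462 (10.1 CPM), and those just outside were Zfp324 (9.75 CPM) and Zfp28 (9.74 CPM).

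The hippocampus, the brain region needed for spatial and working memory, was taken from male C57BL/6J mice that had received vehicle (Veh) or platelet factor 4 (PF4), a chemokine released by activated platelets. The libraries comprised 13 Young Veh, 12 Young PF4, 12 Old Veh and 10 Old PF4 mice, and the label ages ran from 3.75 to 5.26 months in the young mice and from 17.4 to 20.23 months in the old mice. No group carried a deletion or transgene according to the sources used here, and PF4 was given to intact mice by daily peritoneal injection. The libraries were unstranded, so reads of a gene and of a gene on the opposite strand cannot be told apart. Only males were measured. In bulk tissue, fewer cells of a type and less RNA per cell cannot be told apart either.

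A C2H2 zinc finger is a short loop in which a pair of cysteines and a pair of histidines hold a zinc ion, and rows of such fingers read DNA or, in some proteins, RNA. Many mammalian Zfp proteins also carry a KRAB domain, which recruits the corepressor Trim28 and with it histone methylation that silences retroelements and imprinted genes. Others lack KRAB and act as transcription regulators, ubiquitin ligases, RNA-binding proteins or components of the mitotic spindle. Families of KRAB genes lie in clusters on a few mouse chromosomes.

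The fingers of the 6 genes shown here differed greatly in number, which is why 1 stretch of each is printed. Each stretch is the coding DNA of the middle finger match of the gene's longest protein in GENCODE vM21 (GRCm38), in the order of the messenger RNA. Capitals mark the codons of the paired cysteines and paired histidines that would hold zinc. All 6 genes were higher in Old Veh than in Young Veh mice by the test described for that comparison.
Zfp106: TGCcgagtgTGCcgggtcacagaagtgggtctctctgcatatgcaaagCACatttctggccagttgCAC
Zfp945: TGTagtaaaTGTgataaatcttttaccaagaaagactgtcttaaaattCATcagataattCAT
Zfp445: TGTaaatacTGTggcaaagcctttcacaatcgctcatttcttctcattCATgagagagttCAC
Zfp458: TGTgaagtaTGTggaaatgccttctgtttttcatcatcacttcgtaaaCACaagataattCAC
Zfp664: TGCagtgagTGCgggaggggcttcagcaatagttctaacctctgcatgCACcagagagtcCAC
Zfp654: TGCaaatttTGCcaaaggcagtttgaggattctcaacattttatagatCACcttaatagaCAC
The stretch of Zfp106 had 69 bases because of a wider gap between its histidines, and the others had 63 bases. The proteins held 3 finger matches (Zfp106), 18 (Zfp945), 12 (Zfp445), 20 (Zfp458), 9 (Zfp664) and 5 (Zfp654). A KRAB match was found in Zfp945, Zfp445 and Zfp458 and in none of the other 3 proteins shown.

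Across the 209 genes the proteins held a median of 10 C2H2 matches (range 0 to 36), where a match is 2 cysteines 2 to 4 residues apart, 12 residues, and 2 histidines 3 to 5 residues apart. Zfp142 had the most. No match was found in 4 proteins, those of Zfp365, Zfp330, Zfp703 and Zfp839. The proteins ran from 76 residues (Zfp706) to 2698 residues (Zfp292). A KRAB match was found in 101 of the 209 (48.3%) and in 114 of the 156 proteins of the less expressed Zfp genes (73.1%). A KRAB match is either of 2 short sequence patterns of the KRAB domain, so a protein without a match may still carry the domain. Among the 52 genes of highest level 16 had a KRAB match, and among the 52 of lowest level 35 had one. The median level was 18.0 CPM with a KRAB match and 26.1 CPM without. Per kilobase of the longest transcript these medians were 5.33 and 7.44 CPM. Of the 209 genes, 50 lay on chromosome 7 and 26 on chromosome 17.

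Zfp365 and Zfp706 were the most abundant of the 209, at 399 and 391 mean CPM. Zfp365, also called DBZ, binds the scaffold protein Disc1 in neurons and oligodendrocytes. Zfp706 is a very small protein known from embryonic stem cells. They were followed by Zfp207 (201 CPM), a kinetochore and spindle protein known as BuGZ, by Zfp106 (201 CPM), an RNA-binding protein known for its part in maintaining motor neurons, and by the KRAB gene Zfp871 (137 CPM). These 5 genes made up 18.4% of the summed level of the 209. The median was 21.4 CPM, with 10 genes at 100 CPM or more and 100 genes under 20 CPM. Per kilobase, Zfp365 (93.7 CPM), Zfp706 (88.6 CPM) and Zfp207 (61.3 CPM) also led, followed by Zfp260 (29.9 CPM) and Zfp771 (24.3 CPM), and the lowest was Zfp462 (0.968 CPM).

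**Figure D1:**
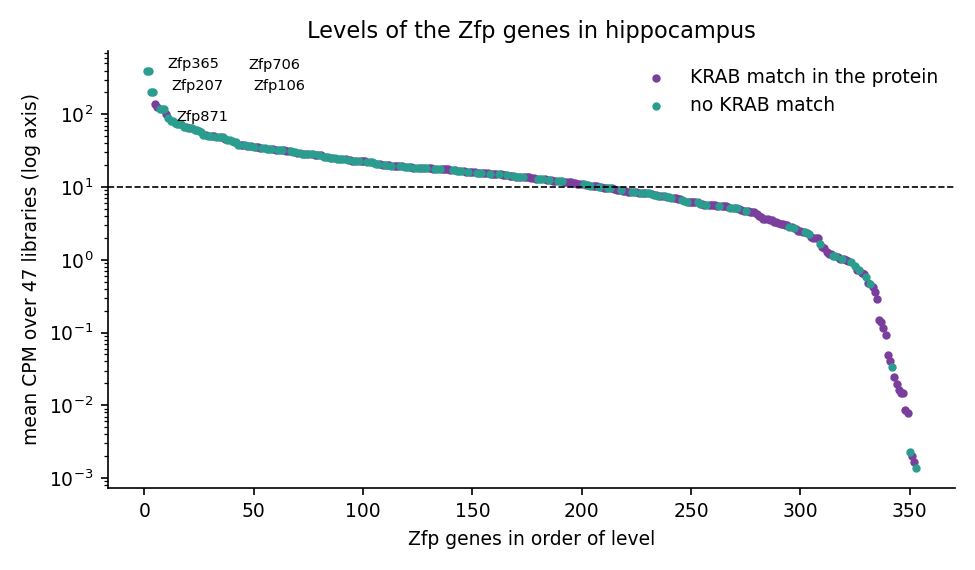
Mean CPM over 47 libraries (log axis) of the Zfp genes with any read, in order of level. Of these 353 genes, Zfp469 (0.846 CPM), with no protein to search, is not drawn. Purple points have a KRAB match and green points do not, and the dashed line is the limit of 10 CPM. The 5 named genes sit above 130 CPM, and the less expressed end is mostly purple.

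All 209 genes entered the tests. Total counts ranged from 2242879 to 21112908 per library, and 8 of the 47 libraries had fewer than 5000000 counts, 4 of them Old Veh. Each of the 209 genes had at least 13 reads in every library. The 6 hippocampal neuron markers checked were detected in every group, with summed levels of 2253 to 4997 CPM. All 10 choroid plexus markers had reads in each group, and their summed level differed widely between libraries, with medians of 1943 CPM in Young Veh, 2380.1 in Young PF4, 47.1 in Old Veh and 65.9 in Old PF4. The 5 microglia markers had medians of 366, 351, 401 and 432 CPM in the same order, and the 5 oligodendrocyte markers had 5839, 5686, 6311 and 6745 CPM. The part of these cell types in the age differences was not tested, apart from the choroid plexus covariate. Libraries also differed in a length index, the mean log2 level of the genes with the longest transcripts minus that of the genes with the shortest. Young Veh 4 (-0.348) and Old PF4 8 (-0.228) had the lowest length index of the 47 libraries.

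Old and young vehicle-treated mice were compared first, to ask which Zfp genes differ with age. Higher levels in Old Veh were called for 7 of the 209 genes and lower levels for none, at an adjusted p below 0.05 in edgeR's quasi-likelihood test across 17778 genes. The 7 were Zfp106, Zfp945, Zfp445, Zfp458, Zfp608, Zfp664 and Zfp654. The 7 calls were 3.35% of the 209 genes, against 2.77% of all genes tested and 2.16% called higher, so the share was near the background. DESeq2 called 8, the same 7 genes and Zfp831, against 3.8% of the genes it tested. At an unadjusted p below 0.05, 26 of the 209 were higher and 2 lower (13.4%, against 15.2% of all genes tested, 1498 higher and 1201 lower). The median log2 fold change was 0.014 over the 209 genes and -0.013 over all genes tested, and 122 of the 209 (58.4%) were higher against 45.3% of all.

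Zfp106 was the clearest case. On GRCm38 it lies at chr2:120506820-120563843 on the minus strand. Its level, as TMM-scaled CPM, ran from 168 to 199.6 (median 192) in Young Veh, from 173 to 213 (median 188) in Young PF4, from 203 to 240.1 (median 225) in Old Veh and from 185 to 210.4 (median 202) in Old PF4. Each of the 12 Old Veh libraries lay above every one of the 13 Young Veh libraries, whereas the Old PF4 range overlapped the Young PF4 range and reached above 1 Old Veh library. The means were 190.0 ± 9.41 (SD, n = 13), 189.8 ± 11.6 (n = 12), 225 ± 11.5 (n = 12) and 200.3 ± 7.81 (n = 10) in the same order. The log2 fold change of Old Veh against Young Veh was 0.24 (SE 0.033, adjusted p = 3.67e-06) by edgeR. The exons of Zfp106 overlap Gm26899 on the opposite strand, whose counts rose too, by 0.42 (SE 0.068, adjusted p = 6.68e-05), and without strand information the reads of the 2 genes cannot be fully separated. Gm26899 held 35315 reads over all libraries and Zfp106 held 95489.

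**Figure D2:**
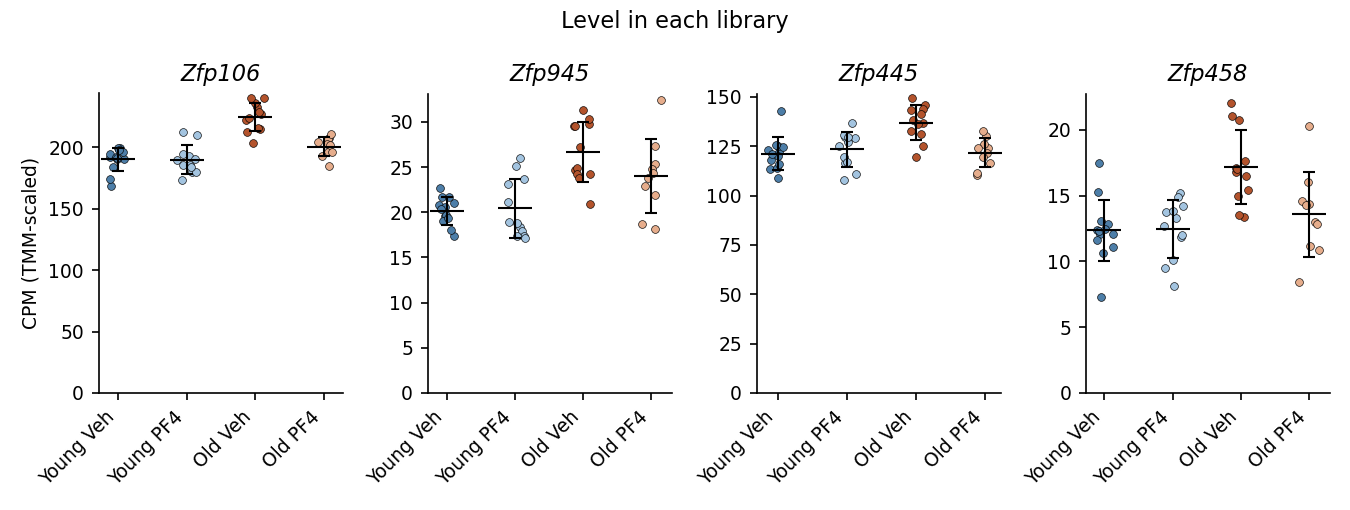
TMM-scaled CPM of Zfp106, Zfp945, Zfp445 and Zfp458 in each library of the 4 groups, with bars for the mean and SD and all axes starting at 0. For Zfp106 the 12 Old Veh points lie above all Young Veh points, while for the other 3 genes the groups overlap.

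The 3 genes with a KRAB match among the 7 rose with age. Zfp445, which protects imprinted methylation together with Zfp57 and lies at chr9:122844529-122866006, ran from 109 to 143 (median 121) in Young Veh and from 119 to 149.6 (median 137) in Old Veh, with 4 Old Veh libraries above every Young Veh library. Its log2 fold change was 0.18 (SE 0.039, adjusted p = 0.00479). Zfp945, at chr17:22846697-22867134, ran from 17.3 to 22.6 (median 20.4) in Young Veh and from 20.96 to 31.3 (median 26.03) in Old Veh. Of the Old Veh libraries, 11 of 12 lay above every Young Veh library, and the log2 fold change was 0.40 (SE 0.074, adjusted p = 0.000517). Zfp458, at chr13:67254918-67278466, was the least abundant of the 7 and ran from 7.33 to 17.5 (median 12.3) in Young Veh and from 13.4 to 22.03 (median 16.9) in Old Veh. The groups overlapped, with a log2 fold change of 0.46 (SE 0.11, adjusted p = 0.0101). Fewer reads stand behind Zfp458 (at least 29 in each library) than behind Zfp106 (at least 434).

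Zfp608, Zfp664 and Zfp654 carried no KRAB match. Zfp608, a large regulator with 1 finger match, ran from 16.4 to 28.4 (median 22.01) in Young Veh and from 22.3 to 39.1 (median 28.1) in Old Veh, and its log2 fold change was 0.34 (SE 0.083, adjusted p = 0.0129). Zfp664 (chr5:124862691-124902693) ran from 55.8 to 74.7 (median 64.97) and from 65.4 to 83.9 (median 72.5), with a log2 fold change of 0.16 (SE 0.042, adjusted p = 0.0302). Zfp654 (chr16:64780347-64851652) ran from 20.7 to 32.7 (median 26.2) and from 26.005 to 36.9 (median 31.3), with 0.25 (SE 0.069, adjusted p = 0.0304). For all 3 genes most Old Veh libraries lay above the Young Veh median, and the ranges overlapped. Zfp831 missed the limit at 0.35 (SE 0.11, adjusted p = 0.0543).

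Leaving out the 8 libraries under 5000000 counts, 4 of them Old Veh, left 3 of these calls, Zfp106, Zfp445 and Zfp945 (1.44% of the 209), while the share called among all genes tested fell to 0.975%. Zfp458, Zfp608, Zfp664 and Zfp654 then had log2 fold changes of 0.36, 0.31, 0.17 and 0.24 and adjusted p of 0.127, 0.103, 0.0512 and 0.113. The running numbers in the sample titles ran from 1 to 12 in Old Veh and from 24 to 43 in Young Veh, so anything that follows them and age cannot be told apart. With this number as a covariate edgeR called no gene of the 209 and 0% of all genes tested, and the standard errors were larger. Zfp106 then had a log2 fold change of 0.16 (SE 0.069), Zfp945 0.33 (SE 0.16), Zfp445 0.36 (SE 0.079) and Zfp654 0.44 (SE 0.14). Zfp458, Zfp608 and Zfp664 had 0.25, 0.14 and 0.10 (SE 0.23, 0.18 and 0.090).

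By role, the lists were small, and their counts are read against the 2.77% called among all genes tested. Of the 6 RNA-binding and translation genes only Zfp106 was called, and the others ran from -0.26 (Zfp598, a ubiquitin ligase that senses collided ribosomes) to 0.11 (Zfp638, a nuclear protein that silences unintegrated retroviral DNA). None of the 3 ubiquitin or SUMO ligases (Zfp91, Zfp451 and Zfp598) was called, with values of 0.13, 0.085 and -0.26. Among the 3 silencers of imprinted genes and retroelements, Zfp445 was called, while Zfp809 (0.012), a silencer of murine leukaemia viruses, and Zfp932 (0.085) were not. Of 16 named transcription regulators Zfp608 was called, and their median log2 fold change was 0.087. Zfp292, a neuronal gene, and Zfp148, a regulator that binds GC-rich DNA, had values of 0.13 and 0.093, and Zfp521 had the lowest of the list, -0.25.

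Of 24 KRAB silencing partners tested, from Trim28 to the histone methyltransferases, DNA methyltransferases and HUSH complex, edgeR called 0 at the adjusted limit and 3 were higher and 0 lower at an unadjusted p below 0.05 (12.5%, beside 15.2% of all genes tested). DESeq2 called 1, Tasor, beside 3.8% of the genes it tested. Trim28, the corepressor itself, had a log2 fold change of -0.050 (SE 0.035), and Tasor, a HUSH subunit, had 0.18 (SE 0.055, adjusted p = 0.0524 by edgeR). Other well-expressed zinc finger genes of the Zbtb, Zkscan, Zscan and lettered Zfp names had 4 of 56 called, all higher (Zbtb37, Zkscan16, Zkscan2 and Zkscan8), and the 119 tested Zfp genes below 10 CPM had 1 called, Zfp970. These shares were 7.14% and 0.84%, beside 2.77% of all genes tested and 3.61% of those at 10 CPM or more, and the differences were not tested.

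Most of the 7 genes have long transcripts, and the part of transcript length in the calls was not tested apart from the covariate given here. The longest transcripts of the 7 genes ran from 4092 bases (Zfp664) to 9085 bases (Zfp106). Among the 78 of the 209 genes at or above the upper quartile of transcript length (4594 bases), 6 were called (7.69%) and 20 were higher and 0 lower at an unadjusted p below 0.05 (25.6%), and their median was 0.055. Among all tested genes of that length the median was 0.020, 6.13% were called, and 764 were higher and 217 lower at an unadjusted p below 0.05 (22.2%). In the 119 genes of middle length 1 was called and the median was 0.0057 (-0.022 over all genes of that length, of which 1.85% were called). In the 12 genes at or below the lower quartile 0 were called and the median was 0.0056, about that of the middle length. Among all tested genes of that length the median was -0.034 and 1.31% were called. The length index had a median of 0.0422 in Old Veh and 0.00891 in Young Veh. With the index as a covariate 11 of the 209 were called, 9 higher and 2 lower, among them all 7 named above. These were 5.26%, beside 5.07% of all genes tested in that fit, and Zfp106 had a log2 fold change of 0.22. With the choroid plexus score as a covariate 6 were called, without Zfp664, and 2.02% of all genes tested.

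**Figure D3:**
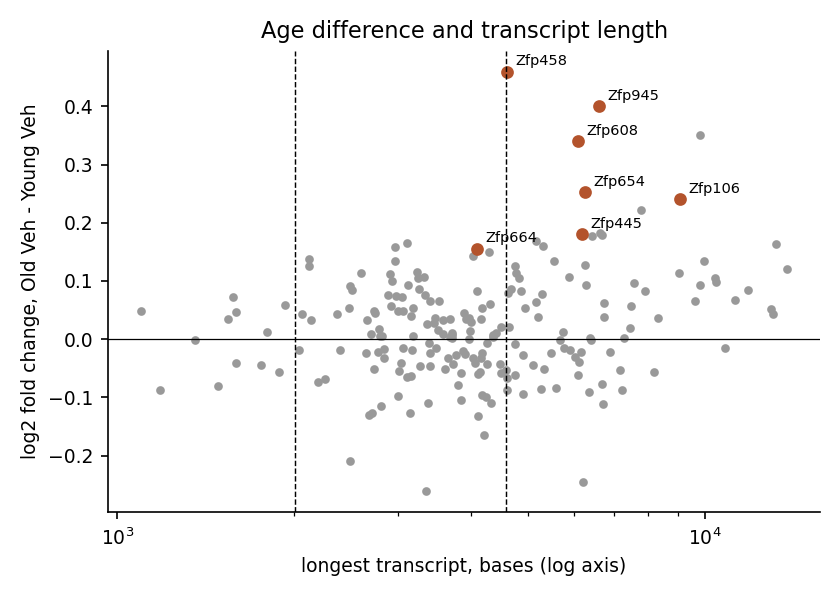
Log2 fold change of Old Veh against Young Veh for the 209 genes against the length of the longest transcript in bases (log axis). Red points are the 7 called genes and dashed lines mark the lower and upper quartiles of all tested genes, 2006 and 4594 bases. Of the red points, 6 lie to the right of the upper line.

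Of the genes with a KRAB match 3 of 101 were called (2.97%) and of those without 4 of 108 (3.7%), beside 2.77% of all genes tested and 3.61% of those at 10 CPM or more, with medians of 0.025 and 0.0076. At an unadjusted p below 0.05, 10 genes with a KRAB match were higher and 0 lower, and 16 of the others were higher and 2 lower. These were 9.9% and 16.7%, beside 15.2% of all genes tested and 16.5% of those at 10 CPM or more. By number of finger matches, 2 of 30 genes with 0 to 3 matches (6.67%), 2 of 65 with 4 to 9 (3.08%) and 3 of 114 with 10 or more (2.63%) were called, beside the same background, and no trend is read from these small counts. These classes were not tested against each other.

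Of the 5 most abundant genes, Zfp106 was called with age and the other 4 were not. Zfp365 averaged 408 ± 46.3 CPM in Young Veh (SD, n = 13) and 396 ± 34.8 in Old Veh (n = 12), a log2 fold change of -0.042 (SE 0.054, adjusted p = 0.779) by edgeR. Zfp706 averaged 390.3 ± 66.6 and 393 ± 35.7 CPM in these groups, with 0.011 (SE 0.075, adjusted p = 0.975), and Zfp207 averaged 204 ± 35.6 and 198 ± 17.6, with -0.045 (SE 0.071, adjusted p = 0.827). The ranges of these 3 genes overlapped between the groups. The highest Young Veh values of Zfp706 and Zfp207, 601 and 317 CPM, were those of Young Veh 4, the library of lowest length index. Zfp871 had -0.015 (SE 0.070, adjusted p = 0.960) and Zfp260 0.030 (SE 0.052, adjusted p = 0.853). Zfp148, of about the level of Zfp445, had 0.093 (SE 0.034, adjusted p = 0.142), with 7 of 12 Old Veh libraries above every Young Veh library. The 209 genes together took a median of 0.719% of the counts in Young Veh, 0.721% in Young PF4, 0.735% in Old Veh and 0.718% in Old PF4, with single libraries between 0.679% and 0.768%.

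By chromosome, the median log2 fold change of the 209 genes was 0.068 for the 13 genes on chromosome 9 and 0.072 for the 12 on chromosome 13, against -0.016 for the 50 on chromosome 7 and -0.0057 for the 26 on chromosome 17. The medians of all tested genes on these chromosomes were -0.016, 0.0011, -0.016 and -0.030 in the same order. The difference between chromosomes was not tested.

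The age comparison was repeated in mice that received PF4, which shares no library with the first. Old PF4 against Young PF4 gave 0 called genes of the 209, against 0.332% of all genes, with 7 higher and 3 lower at an unadjusted p below 0.05 (4.78%, beside 8.27% of all genes tested, 888 higher and 583 lower). DESeq2 also called 0. Of the 26 genes that were higher with age in vehicle mice at an unadjusted p below 0.05, 22 were higher in the PF4 mice, as were 1252 of 1498 among all genes tested. Over all 209 genes, 58.4% had the same sign in both comparisons, against 64.3% of all genes tested. Zfp106 had 0.076 (SE 0.035, adjusted p = 0.553) and Zfp945 had 0.24 (SE 0.080, adjusted p = 0.260). Zfp445 had -0.017 (SE 0.042, adjusted p = 0.965) and Zfp458 0.095 (SE 0.12, adjusted p = 0.904). The running numbers in the sample titles ran from 13 to 23 in Old PF4 and from 28 to 48 in Young PF4. With this number as a covariate Zfp106 had 0.0097 (SE 0.060).

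**Figure D4:**
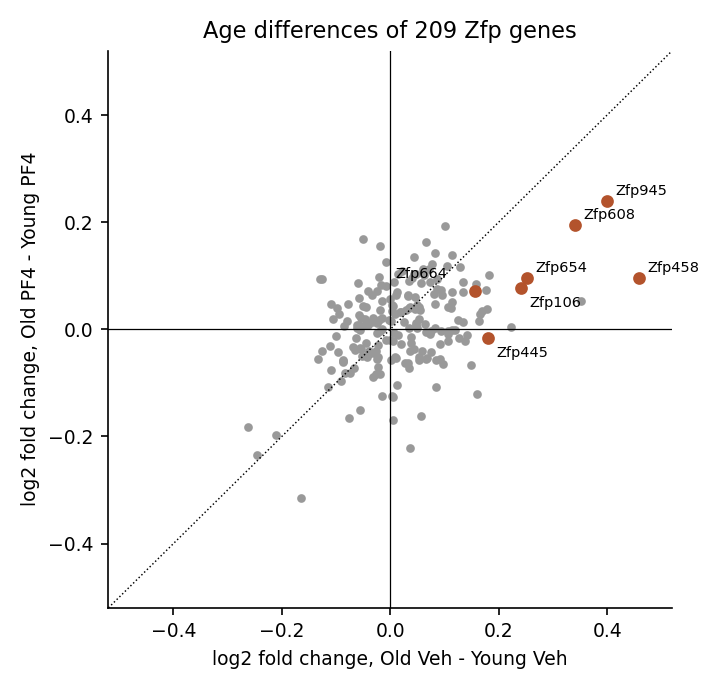
Log2 fold changes of the 209 genes for Old Veh minus Young Veh (horizontal) and Old PF4 minus Young PF4 (vertical), 2 comparisons with no library in common, with the line of equality dotted. The 7 genes called in vehicle mice (red) all lie below that line, and Zfp445 lies just under 0 on the vertical axis. They were chosen for their horizontal values.

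PF4 and vehicle were then compared within the old mice, a comparison that shares the Old Veh libraries with the first. None of the 209 genes was called by edgeR (0.0337% of all genes were), with 2 higher and 10 lower at an unadjusted p below 0.05 (5.74%, beside 6.2% of all genes tested, 463 higher and 639 lower). DESeq2 called 2, Zfp106 and Zfp445, both lower, against 0.167% of the genes it tested. The median log2 fold change was -0.013 over the 209 genes and 0.0086 over all genes. The running numbers in the sample titles ran from 1 to 12 in Old Veh and from 13 to 23 in Old PF4. Anything that follows them and PF4 treatment in old mice therefore cannot be told apart. With this number as a covariate edgeR called 0 of the 209 genes and 0 of all genes tested. Zfp106 then had a log2 fold change of -0.13 (SE 0.044, adjusted p = 0.569).

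Zfp106 was lower in Old PF4 than in Old Veh by a log2 fold change of -0.16 (SE 0.035, adjusted p = 0.0567) in edgeR, and DESeq2 gave -0.16 with an adjusted p of 0.0128. All 10 Old PF4 libraries lay below the Old Veh median of 225 CPM, and 6 of them lay below every Old Veh library. Zfp445 gave -0.17 (SE 0.042, adjusted p = 0.159), and all 10 Old PF4 libraries again lay below the Old Veh median. Zfp458 ran from 8.41 to 20.3 (median 13.6) in Old PF4, with -0.35 (SE 0.12, adjusted p = 0.485), and Zfp831 gave -0.35 (SE 0.11, adjusted p = 0.451). The overlapping gene Gm26899 had -0.29 (SE 0.074, adjusted p = 0.171). Zfp945, Zfp608, Zfp664 and Zfp654 had values of -0.17, -0.14, -0.080 and -0.078. Set against Young Veh, whose libraries also served the first comparison, Old PF4 gave 0 called genes of the 209 (0.27% of all genes were called), and Zfp106 had 0.077 (SE 0.034, adjusted p = 0.604). With the running number as a covariate Zfp106 had 0.032 (SE 0.048) there.

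**Figure D5:**
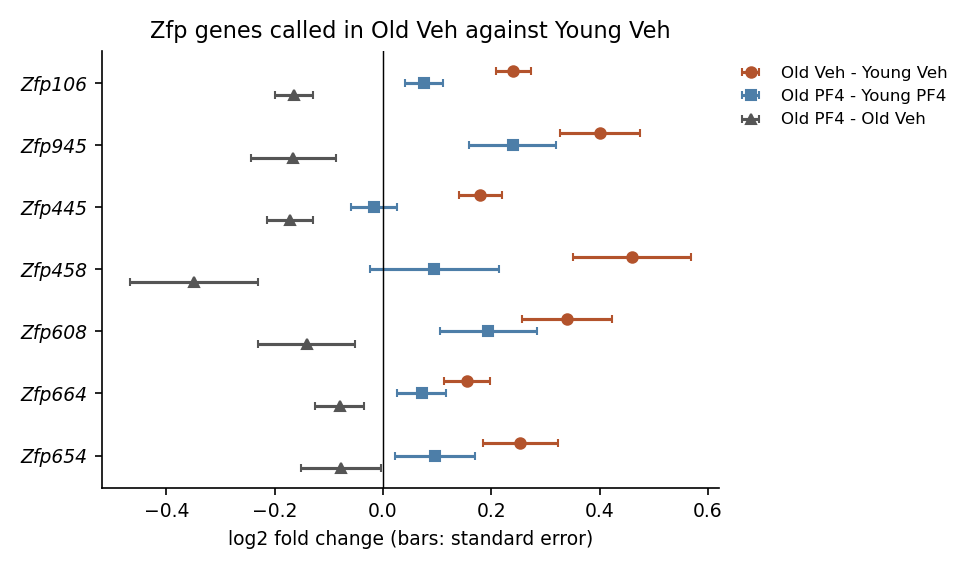
Log2 fold changes (points) with standard errors (bars) of the 7 genes called in Old Veh against Young Veh. Red circles are Old Veh minus Young Veh, blue squares Old PF4 minus Young PF4 and grey triangles Old PF4 minus Old Veh. The red and grey points share the Old Veh libraries, and all 7 grey points lie below 0.

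In young mice, PF4 and vehicle gave 0 called genes among the 209 and 0% of all genes, with 1 higher and 2 lower at an unadjusted p below 0.05 (1.44%, beside 1.2% of all genes tested, 86 higher and 127 lower) in edgeR, and DESeq2 called 0. Zfp106 had 0.00049 (SE 0.033, adjusted p = 1.00) and Zfp445 0.026 (SE 0.040). The difference of the PF4 effects between ages was called for 0 of the 209 genes and for 0% of all genes by edgeR, with 1 higher and 6 lower at an unadjusted p below 0.05 (3.35%, beside 3.98% of all genes tested, 318 higher and 389 lower), and DESeq2 called 0. For Zfp106 it was -0.16 (SE 0.048, adjusted p = 0.893) and for Zfp445 -0.20 (SE 0.058, adjusted p = 0.909).

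The genes differed in how much they varied between mice of 1 group. Over the Young Veh libraries the SD of log2 CPM had a median of 0.166 over the 209 genes. Zfp148, Zfp106 and Zfp260 had the smallest SD, 0.0716, 0.0737 and 0.0753. Zfp317, Zfp948 and Zfp598 had the largest, 0.358, 0.357 and 0.355, and in all 3 the library Young Veh 4 was extreme. Zfp317 reached 107 CPM there against a group median of 45.3, Zfp948 reached 31.6 against 15.2, and Zfp598 was at 12.8 against 30.3. Old PF4 8 went the same way, at 91.7, 36.01 and 13.4 CPM. Without both libraries 10 of the 209 genes were called between Old Veh and Young Veh, all 7 named above with Zfp831 and Zfp131 (higher) and Zfp598 (lower), and 0 between Old PF4 and Old Veh. The share of all genes tested that was called between Old Veh and Young Veh rose too, to 4.55%, beside 4.78% of the 209. This choice was made after the data had been seen.

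Counts of 11 of the 209 genes were uncertain because over 10% of the 50-base stretches of their longest transcript also occur in transcripts of other genes. Zfp58, Zfp932, Zfp414 and Zfp617 shared the most. Zfp106 and Zfp945 shared 0.066% and 0.91%, and the other 5 called genes shared none. Exons of 58 of the 209 genes overlap those of another gene in the table, and these counts are uncertain too, since the libraries were unstranded and how shared reads were counted is not given in the sources used here. In 9 of the 58 the overlapping gene held more reads than the Zfp gene. Of the 7 called genes, Zfp106 and Zfp608 are among the 58 and not among the 9, and Zfp608 overlaps Gm26742 on the opposite strand.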

How the data were processed

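Gene counts from 47 hippocampal libraries (Smart-Seq2 complementary DNA, Nextera XT) were used. The authors deposited raw read counts per gene, without normalization. Per the labels' processing notes, Trim Galore 0.3.7, STAR 2.5.3a, GRCm38 and DESeq2 were named, while the counter and its annotation are not given in the sources used here. Groups came from the sample titles. Each library was treated as 1 mouse, and p-values measure only the spread between these samples.

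Counts were tested with edgeR 4.0.16 in R 4.3.3 (quasi-likelihood F-test, TMM, filterByExpr, 1 fit of the 4 groups, Benjamini-Hochberg adjustment over 17778 genes, two-sided). Standard errors were computed from each log2 fold change and its F statistic. DESeq2 1.42.0 was the alternative. Log2 CPM used a prior count of 2. Gene models, coding sequence and transcript lengths came from GENCODE vM21. The fits were tested on simulated counts. Named genes were Zfp106, all called genes, and the extremes of level, spread and the 10-CPM limit, plus up to 4 of each role list. Zfp831, Zfp131 and the genes without a finger match were named after their values were seen. The 209 genes, the lists and the comparisons were chosen with earlier results of these data known. No table column was left unmapped.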

Additional observations from a re-analysis of the deposited data

Results flagged for a closer look

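In the 10 Old PF4 libraries, 1 library stood apart for 3 of the 13 values checked, and chance flags about 1 in 20 groups. For Zfp706 the library Old PF4 8 was the highest, at 616 CPM against a median of 374, and its gap to the next library was 0.691 of the range of log2 CPM. For Zfp207 the same library was the highest, at 294 CPM against 190.1, with a gap of 0.659. For Zfp871 it was the lowest, at 96.4 CPM against 129.7, with a gap of 0.488. Old PF4 8 also had the lowest length index of its group, -0.228 against a group median of 0.00742, and the part of the index in these values was not tested. Young Veh 4, with the lowest index of all, had 601, 317 and 86.9 CPM for the same 3 genes.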

How the results depend on the processing

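None of the results recomputed reversed under the alternatives run, which cover the counts of calls, Zfp106 in the 3 comparisons of old with young mice and in Old PF4 against Old Veh, and the other called genes between Old Veh and Young Veh. Of 186 values recomputed under the alternatives other than leaving out 1 library, 159 kept their direction and their side of the limit or, for counts, stayed within 1.5 times. These 159 include counts that stayed at 0 and Zfp106 values outside the limit in both fits, however far their adjusted p moved. The 7 genes called between Old Veh and Young Veh became 11 with the length index, 3 without the libraries under 5000000 counts and 0 with the library number of the sample titles as a covariate. Zfp106 then had 0.159 (SE 0.069, edgeR adjusted p = 0.663), and the other zinc finger genes went from 4 to 0, or to 1 without the shallow libraries. Between Old PF4 and Old Veh, DESeq2 called 2 genes, and the filter on mean CPM and the choroid plexus score gave 1 each. All genes called in these fits were 24 of 14382, 7 of 10865 and 10 of 17778. Zfp106 passed there at -0.163, -0.166 and -0.168, with adjusted p of 0.0128, 0.0498 and 0.0421. In the other alternatives, leaving out 1 library aside, it did not pass. Its edgeR adjusted p was 0.134 with the length index, 0.231 in a fit of the 2 groups alone and 0.152 with replicate blocks. Without the shallow libraries it was 0.345, and with the library number 0.569 (log2 fold change -0.127, SE 0.044). Of the KRAB partners, 1 was called by DESeq2 or the filter on mean CPM (Tasor) and 1 with the length index (Hdac2).

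Leaving out each library in turn gave 5 to 8 called genes between Old Veh and Young Veh (356 to 593 of all genes), 0 to 1 between Old PF4 and Old Veh (0 to 20 of all genes), 0 to 1 KRAB partners and 3 to 4 other zinc finger genes. Zfp654 was called in 20 of the 25 fits and lost without Old Veh 3, Old Veh 6, Old Veh 7, Old Veh 8 or Young Veh 4, and Zfp664 was called in 22 and lost without Old Veh 3, Old Veh 6 or Young Veh 11. The other 5 were called in all 25. Zfp106 ran from 0.22 to 0.26 between Old Veh and Young Veh and from -0.18 to -0.15 between Old PF4 and Old Veh, where it was called in 4 of 22 fits, without Old PF4 1, Old PF4 2, Old Veh 11 or Old Veh 12. Between Young PF4 and Young Veh its value was near 0 and changed sign, from -0.014 to 0.015. With replicate numbers as a block, 7 genes were called between Old Veh and Young Veh, beside 453 of all 17778 genes tested. Between Old PF4 and Old Veh 0 were called, beside 2 of all 17778, and Zfp106 had -0.16. Same-numbered libraries deviated together (r over 0.1) in 5 of 10 old and 4 of 12 young pairs, so the numbers were not taken as pairs.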
